A study of Mus musculus with 9 samples.

Results

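Precursor B cells are lymphoid cells that are still assembling the genes of their antibody, and they were found here in a preparation of the mouse trigeminal ganglion, the sensory ganglion of the face. They were chosen by their own transcripts: a cell with 200 to 8500 detected genes was taken when it had at least 1 UMI (unique molecular identifier, 1 counted transcript) of 2 or more of the 5 genes Vpreb3, Igll1, Vpreb1, Mzb1 and Ighm, and of at most 2 of the 6 neuronal genes Tubb3, Scn9a, Snap25, Nefl, Nefm and Uchl1. This rule took 119 cells of 6464 with that number of genes, or 1.84% (95% interval 1.53 to 2.20%). The table held 6997 cells in all, and none of the 523 with fewer genes or the 10 with more had 2 of the 5 genes. The cells came from 9 Drop-seq runs on wild type FVB/N mice, aged 3 to 6 weeks by the labels and 3 to 5 by the study's methods, all of 1 kind with no treatment, and the preparation was enriched for neurons by a Percoll gradient and by depletion of glia and other non-neuronal cells. The labels give the cell type as trigeminal neuron, which these cells are not by the rule. Each run pooled the ganglia of many mice of both sexes. The runs are pooled and the cells do not name their run, so all cells are 1 sample. No test was therefore possible, and every interval below is a 95% interval that covers counting error only (exact binomial for shares of cells, exact Poisson for levels).

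B cells arise in the bone marrow through ordered stages. A pro-B cell joins the segments of its heavy chain gene with the recombinase Rag1 and Rag2, while Dntt adds bases at the junctions. When the heavy chain (Ighm encodes its constant region) is made, it pairs with the surrogate light chain, built from Igll1 and Vpreb1 or Vpreb2, to form the pre-B cell receptor, which signals through Cd79a, Cd79b, Syk and Blnk. Large pre-B cells then divide, stop making the surrogate light chain, and rearrange a conventional light chain gene, usually kappa (constant region Igkc), before they leave as immature B cells.

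The 119 cells were shallow, with a median of 1442 UMIs (1000 to 9118) and 879 genes, against 3214 UMIs in 3820 neurons (cells with 4 or more of the 6 neuronal genes). None of the cell barcodes that occur in duplicate in the table belonged to these cells, and none of 7021 pairs of them had barcodes that differed by 1 base or fewer. RNA of other cells was present: haemoglobin made up a median of 0.657% of their UMIs and 60.02% in the highest cell, against a median of 0.186% in neurons. Growth hormone (Gh), a product of the pituitary, had a UMI in 70 of the cells, at 4592 CPM (counts per 1000000 UMIs of the group) against 19058 in all other cells. Of the neuronal genes used in the rule, 40 cells had none, 55 had 1 and 24 had 2.

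The rule genes themselves are given as a description, since they chose the cells. Ighm had a UMI in 105 of the 119 cells (88.2%), with a median of 3 and at most 19 UMIs in the cells that had it. Vpreb3, which encodes a protein that binds the heavy chain in the endoplasmic reticulum, was seen in 97 cells, Igll1 in 92, Vpreb1 in 85 and Mzb1, an endoplasmic reticulum chaperone of antibody chains, in 80. Their levels were 1908 CPM for Ighm, 1754 for Igll1, 1339.7 for Vpreb3, 1177 for Vpreb1 and 692 for Mzb1. All 5 genes were seen together in 41 cells, 4 of them in 36, 3 in 26 and 2 in 16. The 16 cells just inside the rule had a median of 1342 UMIs, and the 28 just outside it, with 1 of the 5 genes, 1657. A further 23 cells had 2 or more of the 5 genes but more than 2 neuronal genes, and were left out with a median of 2793 UMIs.

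Igll1 (chr16:16860671-16863985, GRCm38.p6) and Vpreb1 (chr16:16868401-16869255) lie next to each other on mouse chromosome 16, and Vpreb2 (chr16:17979445-17981274), a close copy of Vpreb1, lies on the same chromosome. The 250 bases before their start sites are shown (RefSeq, GRCm38.p6, 5′ to 3′ on the gene's strand, as the RefSeq promoter table places the start). Igll1 and Vpreb1 are genes of the rule, and Vpreb2 is shown because the copies can share reads. The windows are chr16:16863986-16864235 (minus strand) for Igll1, chr16:16869256-16869505 (minus strand) for Vpreb1 and chr16:17980315-17980564 (plus strand) for Vpreb2, whose window lies inside the full span of the gene given above. Capitals mark the match to CCCNNGGG, the core of the motif bound by the B lineage factor Ebf1, in Igll1, and the longest run of bases that Vpreb1 and Vpreb2 have in common.
Igll1: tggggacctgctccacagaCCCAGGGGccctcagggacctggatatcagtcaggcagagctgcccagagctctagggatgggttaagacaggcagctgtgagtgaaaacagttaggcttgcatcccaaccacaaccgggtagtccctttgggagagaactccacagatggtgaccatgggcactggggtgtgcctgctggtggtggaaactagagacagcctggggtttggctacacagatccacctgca
Vpreb1: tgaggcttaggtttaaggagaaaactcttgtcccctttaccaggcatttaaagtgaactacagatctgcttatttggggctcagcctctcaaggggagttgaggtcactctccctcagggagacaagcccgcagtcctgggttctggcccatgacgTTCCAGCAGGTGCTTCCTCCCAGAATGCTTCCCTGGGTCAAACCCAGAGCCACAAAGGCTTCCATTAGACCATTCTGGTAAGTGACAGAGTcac
Vpreb2: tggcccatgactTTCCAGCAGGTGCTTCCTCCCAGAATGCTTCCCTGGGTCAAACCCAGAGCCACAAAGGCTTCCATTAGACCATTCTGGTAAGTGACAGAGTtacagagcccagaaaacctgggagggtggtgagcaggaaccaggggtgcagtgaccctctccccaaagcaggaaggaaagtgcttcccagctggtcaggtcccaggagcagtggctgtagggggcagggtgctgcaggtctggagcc
The shared run is 91 bases long and lies at -94 to -4 from the start site of Vpreb1 but at -238 to -148 from that of Vpreb2. Vpreb2 was counted in 19 cells with 22 UMIs, against 267 UMIs for Vpreb1, and how reads were divided between the copies is uncertain. CCCNNGGG, searched on both strands, was found at -231 in the Igll1 window and in none of those of Vpreb1, Vpreb2 and Vpreb3, and it occurs in 11.8% of all 32851 windows of this length. The E-box CANNTG was found in all 4 windows and in 66.2% of all windows, and no E-box overlapped the CCCNNGGG match. These matches describe the sequence and say nothing of binding.

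The label was checked with genes the rule did not use. Of Cd79a, Cd79b, Blnk and Pax5, which mark the B lineage, at least 1 had a UMI in 90 of the 119 cells, or 75.6% (66.9 to 83.0%), against 1.28% of the deeper neurons. The share was 75% in cells with 2 rule genes, 69.2% with 3, 75% with 4 and 80.5% with all 5, with overlapping intervals. It was 10.7% (2.27 to 28.2%) in the 28 cells with 1 rule gene and at most 2 neuronal genes, and 1.33% in the 2026 with none. After thinning each cell to 1000 UMIs the share in the precursor B cells was 64.7% and in neurons 0.366%. Ebf1, another B lineage factor, was left out of this count because 54.5% of neurons also had a UMI of it.

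**Figure D1:**
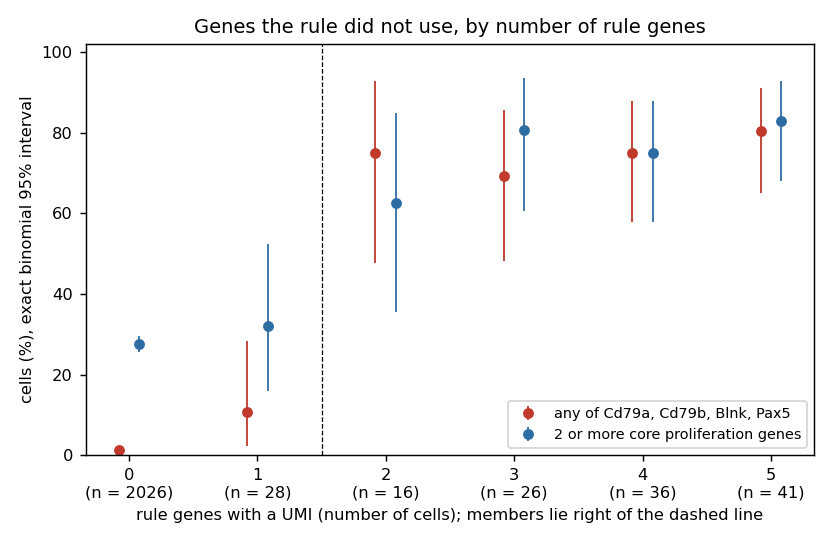
The vertical axis gives the share of cells (%) with any of 4 B lineage genes outside the rule (red) and with 2 or more of 10 core proliferation genes (blue), by the number of rule genes with a UMI, in cells with at most 2 neuronal genes; bars are exact binomial 95% intervals. The red share is 10.7% at 1 rule gene and 75% at 2, and does not go below 69.2% in the chosen cells.

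Among components of the B cell receptor and its signalling chain, Cd79b, a signalling subunit of the receptor, was the one most widely seen after the surface protein Cd24a. Cd79b had a UMI in 57.1% (47.7 to 66.2%) of the cells at 617 (519 to 728) CPM, and in 0.393% of neurons. Its partner Cd79a was seen in 21.0% (14.1 to 29.4%). The adaptor Blnk was seen in 39.5% (30.7 to 48.9%), the kinases Syk in 22.7% and Btk in 13.4%, and the phosphatase Ptprc, which marks white blood cells, in 16.0%. In neurons none of these was above 0.759%. Cd24a was seen in 91.6% of the cells but also in 68.4% of neurons. Levels were compared with those in all 6345 other cells of 200 to 8500 genes, over 5683 genes with enough UMIs: 754 genes (13.3%) were at least 4-fold higher and 1351 (23.8%) at least 4-fold lower in the precursor B cells, with a median log2 ratio of -0.21. On this measure 8 of the 9 receptor and signalling genes compared were at least 4-fold higher, with a median log2 ratio of 7.14.

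Transcription factors of the B lineage gave 10 of 14 genes at least 4-fold higher and none lower, with a median log2 ratio of 5.90. Myb, a factor of blood progenitors, was seen in 53.8% (44.4 to 63.0%) of the cells, and Lef1, a Wnt pathway factor used in pro-B and pre-B cells, in 51.3% (41.9 to 60.5%). The co-activator Pou2af1 was seen in 38.7%, Tcf3, which encodes E2A, in 27.7%, Ikzf1 in 24.4%, Spib in 17.6% and Pax5, which fixes the B cell fate, in 12.6%. Ebf1 was at 529 (438 to 632) CPM in the precursor B cells and 239 in neurons. Runx1 was close to its level elsewhere, with a log2 ratio of 0.04 (-0.56 to 0.58), and 36.8% of neurons had a UMI of it.

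**Figure D2:**
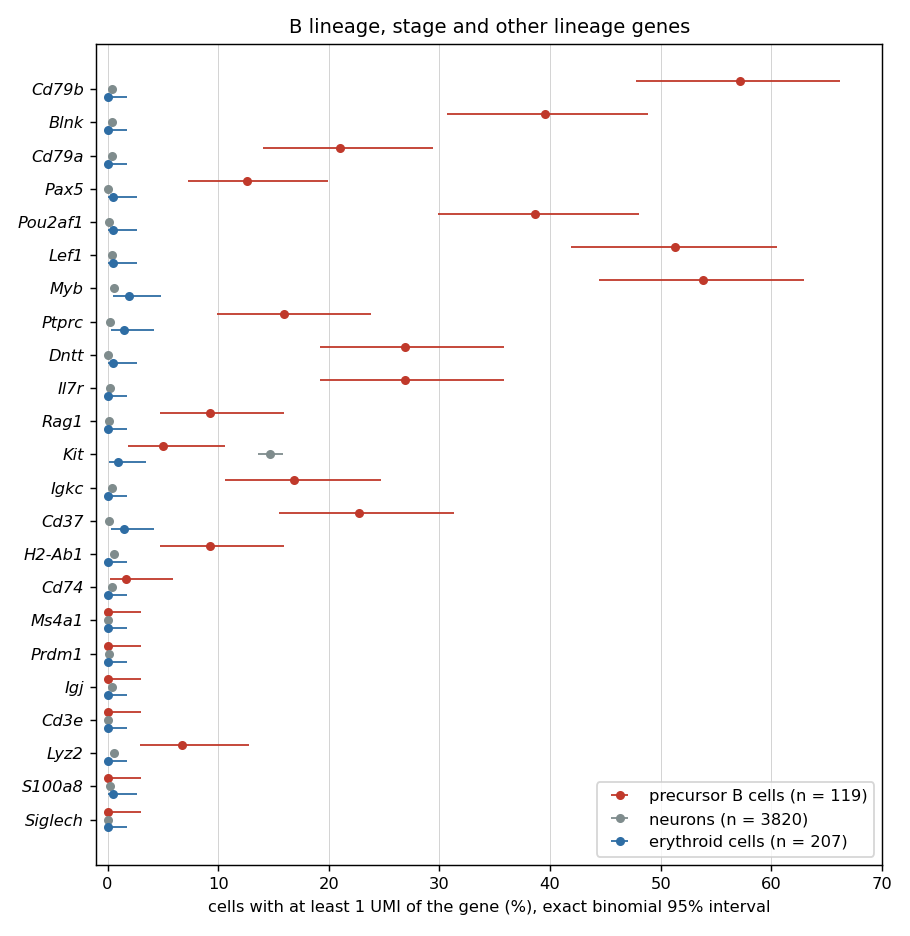
The horizontal axis gives the share of cells (%) with at least 1 UMI of each gene in 119 precursor B cells (red), 3820 neurons (grey) and 207 erythroid cells (blue, 2 or more of Hemgn, Tal1 and Kel), with exact binomial 95% intervals. Cd79b reaches 57.1% and Dntt 26.9% of the precursor B cells, Igkc 16.8%, and Ms4a1, Prdm1 and Cd3e 0 cells.

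Markers of other white blood cells were scarce. Of the T and NK cell list, 3 of 13 genes had a UMI, the sum of the list was 44.1 CPM against 8.88 in all other cells, and no cell had 2 of its genes. Cd3d, Cd3e, Trac and Trbc1 were at 0. By a limit of 3 counts, 0 of 119 cells allows a share of cells with a UMI of up to 2.52%, which is no limit on cells that express the gene. Csf1r, Cd68 and the C1q genes of macrophages were at 0, Lyz2 was seen in 8 cells, and the monocyte and macrophage list summed to 39.7 CPM against 8.71. Siglech and Bst2, which mark plasmacytoid dendritic cells, were at 0, although Tcf4, which those cells use too, was seen in 39. In the list of those cells 4 of 8 genes had a UMI, in 42 cells. That list summed to 247 CPM against 68.4 in all other cells, and no cell had 2 of its genes. Granulocyte precursor genes summed to 30.8 CPM, from Mpo in 2 cells and Ms4a3 and S100a9 in 1 cell each. Glial genes were seen in 26 cells and summed to 264 CPM, against 1398 in all other cells. Endothelial genes summed to 35.3 CPM, all from Pecam1, which leukocytes also carry, megakaryocyte genes to 4.41, and both mast cell genes in the table were at 0. Erythroid genes, haemoglobin included, were abundant: at least 1 had a UMI in all 119 cells, and they summed to 38555 CPM against 22132 in all other cells, with 0 of 8 compared at least 4-fold higher. Of the pituitary genes 3 of 4 were at least 4-fold lower. All 6 neuronal rule genes were at least 4-fold lower, which the rule fixed.

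Outside the lists, the 20 genes with the highest ratio to other cells among those seen in 10 or more members were led by lymphoid genes of low count, such as Cd84 and Slamf6, receptors of the SLAM family, with 14 and 22 UMIs. The ones seen in most cells were Lrmp, an endoplasmic reticulum protein of lymphoid cells, in 73.9% (65.1 to 81.6%), and Ptprcap, which binds the phosphatase Ptprc, in 68.9% (59.8 to 77.1%). Lrmp was at 1177 (1039.7 to 1327) CPM, against 2.28 in other cells, a log2 ratio of 9.01 (8.61 to 9.42). Gmfg was seen in 67 cells, Plac8 in 62, Bfsp2 in 38, the early activation antigen Cd69 in 37, the peptidase Dpp4 in 36, Rhoh in 20 and the B cell lectin Siglecg in 17. None of the genes just named was seen in more than 0.471% of neurons.

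The stage of the cells was first read from the recombination genes. Any of Rag1, Rag2 and Dntt had a UMI in 39 cells, or 32.8% (24.4 to 42.0%), and 25.2% after thinning to 1000 UMIs, against 0.183% of neurons. The share was 19.3% where 2 UMIs counted as seen and 22.5% with no neuronal gene allowed. Most of the 39 cells had Dntt (chr19:41029275-41059525), which was seen in 32 cells with 91 UMIs. Cells that had it held a median of 3 and at most 8 UMIs. Dntt was at 401 (323 to 492) CPM, against 0.171 in neurons. Rag1 was seen in 11 cells with 18 UMIs and Rag2 in 4 with 5, and no cell had both. Of the 11 cells with Rag1, 6 also had Dntt. Among the end joining genes that every cell uses, Xrcc6 was seen in 25 cells and Lig4 in 13, while Prkdc was at 17.6 CPM against 20.4 in neurons. In this list 6 of 7 genes compared were at least 4-fold higher, among them Hmgb1 and Hmgb2, chromatin proteins that are also high in dividing cells.

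Genes of earlier lymphoid stages were mixed. Il7r, the receptor for the cytokine that pro-B and large pre-B cells depend on, was seen in 26.9% (19.2 to 35.8%) of the cells, against 0.236% of neurons. Cd93 was seen in 25 cells, Erg in 12, Ly6d in 13, Bst1 in 10 and Spn, which encodes CD43, in 7. Kit, the stem cell factor receptor of the earliest B lineage cells, was seen in 6 cells at 26.4 CPM, below its 45.7 CPM in neurons. Flt3, which is lost on commitment, was seen in 5 cells and in 2.96% of neurons, and Cd34 in 1 cell. In all, 6 of 7 genes of this list that could be compared were at least 4-fold higher and 1, Cd34, was at least 4-fold lower.

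The surrogate light chain was seen in 99 cells (83.2%), which the rule favoured. Transcripts of a conventional light chain constant region were seen in fewer. Igkc (chr6:70726435-70726754) had a UMI in 20 cells, or 16.8% (10.6 to 24.8%), against 0.366% of neurons. Cells that had it held a median of 2 and at most 7 UMIs, and 9 of the 20 held 1. The share was 9.24% where 2 UMIs counted as seen. Whether the light chain gene was joined in these cells was not tested. The lambda constant region Iglc2 gave 12 UMIs, all in 2 cells that also had Igkc. Among the other genes of the pre-B list, Cd53 was seen in 37 cells, Cxcr4, the receptor that holds precursors in the marrow, in 16 and Irf4, a factor of light chain rearrangement, in 12. Il2ra, which encodes CD25 of small pre-B cells, and Bcl6 were at 0. In this list 7 of 9 genes compared were at least 4-fold higher and 1 lower, with a median log2 ratio of 5.89.

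Genes of later B cells were rare. Any of Ms4a1, H2-Aa, H2-Ab1, H2-Eb1 and Cr2 had a UMI in 13 cells, or 10.9% with an upper limit of 17.96%, against 2.20% of neurons. The share was 1.68% where 2 UMIs counted as seen. Of the 13 cells, 11 had H2-Ab1, a class II antigen presentation gene. Ms4a1, which encodes CD20, and the mature B cell receptors Cr2 and Cd40 were at 0, and Cd74 was seen in 2 cells. Cd37 was seen in 22.7% of the cells and Tnfrsf13c, the receptor for the survival factor BAFF, in 6.72%. Of the antibody secreting cell genes, Igj, Prdm1, Tnfrsf17, Igha, Ighg1, Ighg2c and Ighg3 were at 0, Xbp1 was at 22.0 CPM against 83.8 in neurons, and Slamf7 was seen in 19 cells. Ighg2b, another heavy chain constant region, gave 11 UMIs in 4 cells. All 4 had Igll1 and Vpreb1, 2 had Rag2, 2 had Dntt and none had Igkc. Whether any of these cells made a heavy chain with Ighg2b was not tested. Of 6 genes compared in the immature and mature list 4 were at least 4-fold higher and 2 lower, and the list summed to 419 CPM against 563 in all other cells. Of 3 in the plasma cell list, Slamf7 and Ighg2b were at least 4-fold higher and Xbp1 at least 4-fold lower.

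Dntt and Igkc were never seen in the same cell: 32 cells had Dntt, 20 had Igkc and 67 had neither. This split was chosen after the values were seen, so what follows is a description. Igll1, Vpreb1, Vpreb3 and Ighm are also rule genes, and a cell without the surrogate light chain could enter only with 2 of Vpreb3, Mzb1 and Ighm, so the rule bears on their order. Median depth was alike, at 1398 UMIs in cells with Dntt, 1460 in cells with neither and 1446 in cells with Igkc. The surrogate light chain was seen in 29 of 32 cells with Dntt and 10 of 20 with Igkc, and Ighm in 24 of 32 and 20 of 20. Rag1 was seen in 6 cells with Dntt, 5 with neither and none with Igkc.

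Igll1 was at 2532 (2117 to 3005) CPM in cells with Dntt, 1707 (1495 to 1940.3) in cells with neither and 866 (596 to 1216) in cells with Igkc. Vpreb1 had the same order, at 2223 (1835 to 2668), 912 (759 to 1086) and 708 (467 to 1031) CPM, although the last pair of intervals overlap. Ighm had the opposite order, at 1527 (1209 to 1903), 1641 (1434 to 1870.5) and 3385 (2826 to 4022) CPM, and stood apart in cells with Igkc. Vpreb3 had neither order, at 1875 (1521 to 2287), 1058 (893 to 1245) and 1627 (1247 to 2086) CPM. The factors Ebf1 and Lef1 and the adaptor Blnk were highest with Dntt: Ebf1 was at 1140.5 CPM against 262 with Igkc, a log2 ratio of 2.12 (1.14 to 3.25), Lef1 at 754 against 209.9, a log2 ratio of 1.84 (0.73 to 3.15), and Blnk at 889 against 236, a log2 ratio of 1.91 (0.86 to 3.13), whose interval included 0 after thinning. Tcf4 was seen in 18 cells with Dntt and 1 with Igkc. Outside the lists, the largest difference of this direction with a UMI on both sides was in Cplx2, with a log2 ratio of 3.62 (1.99 to 5.94).

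Cells with Igkc were higher in a further set of genes. Irf4 was seen in 8 of the 20 and in none of the 32 with Dntt, and Spib in 9 and 3. The interval of the log2 ratio of Spib included 0 without cells over 1% haemoglobin and where 2 UMIs were needed. The kinase Syk was at 577 CPM with Igkc and 174 with Dntt, with an interval that included 0 where 3 rule genes were needed, and Blk, a Src family kinase of B cells, was seen in 6 and 1 cells. Ly6d was at 367 and 96.7 CPM and the surface protein Cd72 at 394 and 116. Outside the lists, Fcrla, an Fc receptor-like protein of B cells, was at 866 CPM in 13 cells with Igkc and 19.3 in 1 cell with Dntt, and Vamp8, a protein of vesicle fusion, was seen in 14 and 2 cells. RNA of other cells also differed: haemoglobin was over 1% of UMIs in 17 of 32, 18 of 67 and 9 of 20 cells with Dntt, neither and Igkc, and Gh was at 967, 6981 and 918 CPM in the same order. Without the cells over 1% haemoglobin the log2 ratio of Igll1 between cells with Dntt and with Igkc was 0.74 (0.05 to 1.45), in place of 1.55 (0.99 to 2.15).

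**Figure D3:**
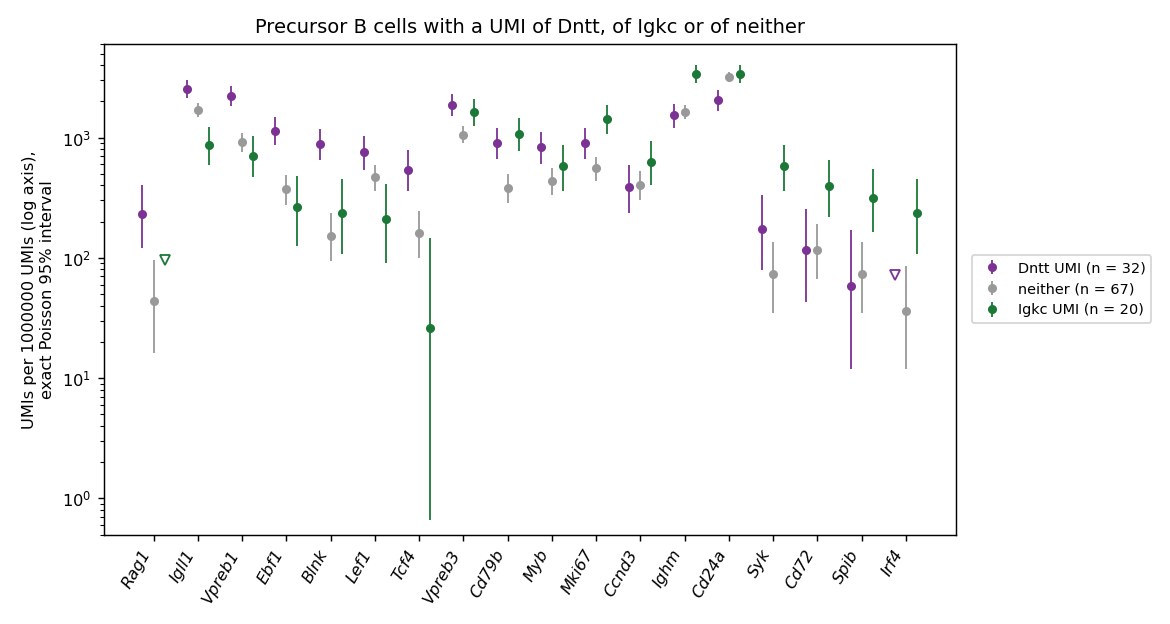
Level of each gene (CPM, log axis) in 32 precursor B cells with a UMI of Dntt (purple), 67 with neither (grey) and 20 with a UMI of Igkc (green); bars are exact Poisson 95% intervals, and an open triangle marks the upper limit where the count was 0. Igll1 runs from 2532 down to 866 and Ighm from 1527 up to 3385; both are genes of the rule.

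Cells with and without the surrogate light chain were also compared, 99 against 20 cells of like median depth (1460 and 1397 UMIs). The summed conventional light chain genes were at 134 CPM in cells with the surrogate light chain and 1048 in cells without, a log2 ratio of -2.97 (-3.77 to -2.19). The pre-B list had a log2 ratio of -1.15 (-1.47 to -0.82) and the immature and mature list -1.10 (-1.78 to -0.38). The early lymphoid and pro-B list had -0.61 (-1.07 to -0.12), and all were higher where the surrogate light chain was not seen. In the last list Cd93 was at 92.6 and 339 CPM and Ly6d at 51.4 and 339. Dntt, at 416 and 308 CPM, and Erg, at 82.3 and 30.8, went the other way, with intervals that included 0. A cell without the surrogate light chain could enter only with 2 of Vpreb3, Mzb1 and Ighm, so the rule bears on this split. Fcrla was at 97.7 and 863 CPM. The S phase list had a log2 ratio of -0.09 (-0.27 to 0.10). The G2/M list had -0.41 (-0.52 to -0.29) and the core proliferation genes -0.42 (-0.64 to -0.19), both higher without the surrogate light chain. The core genes are part of the G2/M list, so these are not separate results. The share of cells with 2 or more core proliferation genes was 77.8% with it (68.3 to 85.5%) and 75% without (50.9 to 91.3%). RNA of other cells differed as well, in both directions: Gh was at 5224 CPM with the surrogate light chain and 801 without, and Hbb-bs, a haemoglobin gene, at 21174 and 37576. Chga, a granin of endocrine cells, had 18 UMIs in 1 cell without the surrogate light chain and 3 in 3 cells with it. Their part in these ratios was not tested.

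Most of the cells carried transcripts of the cell cycle. At least 2 of 10 core proliferation genes (Mki67, Top2a, Cdk1, Ccnb2, Birc5, Ube2c, Nusap1, Tpx2, Cenpf and Aurkb) had a UMI in 92 cells, or 77.3% (68.7 to 84.5%), and these are called dividing cells here. The share was 2.93% in neurons, 95.7% in erythroid cells and 87.1% in 31 blood progenitors (cells with Car1 and Myb). Thinned to 1000 UMIs, the shares were 73.1%, 1.18%, 91.8% and 64.5% in the same order. The number of core genes per precursor B cell ran from 0 in 16 cells to 9 in 4 cells. Top2a, the topoisomerase that untangles copied DNA, was seen in 68.9% (59.8 to 77.1%), Mki67 in 53.8% (44.4 to 63.0%) and the cytokinesis gene Birc5 in 44.5% (35.4 to 53.9%). All 10 core genes were at least 4-fold above other cells, with a median log2 ratio of 3.84.

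Genes of DNA copying were as widespread. Of the S phase list, 37 of 39 genes compared were at least 4-fold higher, with a median log2 ratio of 3.54. Of the G2/M list, which includes the core proliferation genes, 43 of 48 were, with a median of 3.75. Pcna, the sliding clamp of DNA polymerase, was seen in 65.5% (56.3 to 74.0%), Uhrf1, which maintains DNA methylation, in 42.0% (33.0 to 51.4%), the ribonucleotide reductase subunit Rrm2 in 45.4% (36.2 to 54.8%) and the helicase subunit Mcm6 in 32.8% (24.4 to 42.0%). In neurons Pcna reached 24.5% at greater depth, and Uhrf1 0.681%. Hmgb2, a chromatin protein that also assists the recombinase, was the most widely seen gene of the G2/M list, in 91.6%. Tubb4b of the same list was lower than in other cells, at 427 against 852 CPM, and was seen in 85.1% of neurons.

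The phases were set beside those of other dividing blood cells. The median precursor B cell had 8.25 UMIs of S phase genes per 1000 UMIs (quartiles 4.18 and 11.2), against 3.99 in erythroid cells, 5.39 in blood progenitors and 0.422 in neurons. For G2/M genes the medians were 16.2, 23.4, 9.03 and 2.32. Haemoglobin takes a median of 48.2% of the UMIs of erythroid cells, which lowers every other gene per 1000 UMIs there. The quartiles of the S phase values overlapped between precursor B cells and both other blood groups, and the differences were not tested.

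**Figure D4:**
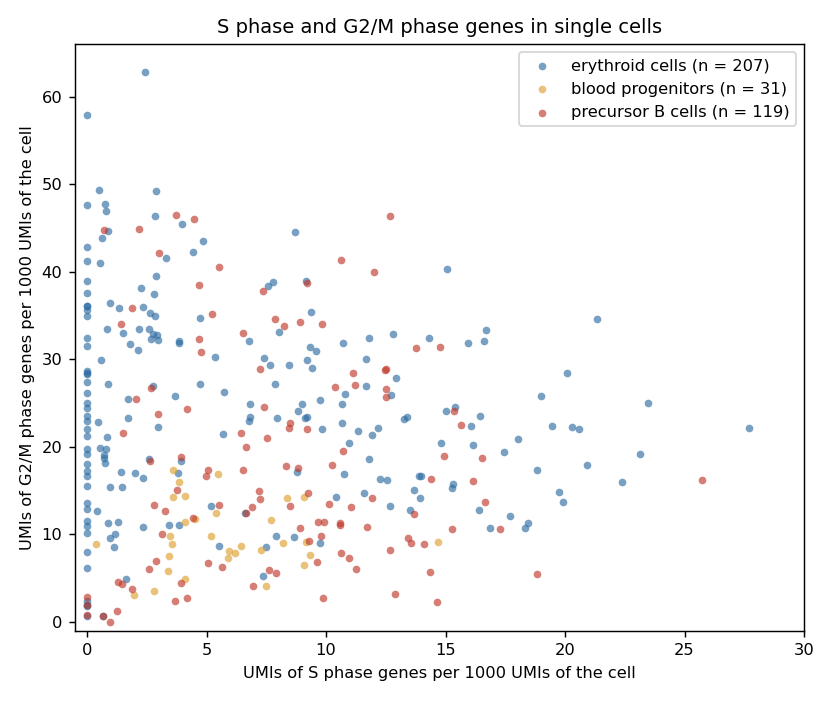
Each point is a cell, with UMIs of S phase genes per 1000 UMIs on the horizontal axis and of G2/M genes on the vertical axis, for 119 precursor B cells (red), 207 erythroid cells (blue) and 31 blood progenitors (yellow). Precursor B cells reach 25.7 on the S phase axis and 46.5 on the G2/M axis, and the 3 groups overlap.

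Among cyclins and their partners, Ccnd3, the D-type cyclin used by dividing pre-B cells, was the leading one. It was seen in 47.9% (38.7 to 57.2%) of the cells at 436 (355 to 531) CPM, while Ccnd2 was at 83.7 and Ccnd1 at 22.0. Cdk6 was seen in 17.6% and Cdk4 in 30.3%, against 0.471% and 18.4% of neurons. The mitotic cyclins Ccna2 and Ccnb1 were seen in 38 and 28 cells. The inhibitor Cdkn1b was seen in 38 cells with a log2 ratio of 0.95 (0.53 to 1.33) to other cells, and the transcription factor Myc in 8, with -0.14 (-1.27 to 0.79). Of 12 genes compared in this list 6 were at least 4-fold higher and none lower.

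Dividing cells (92, median 1490.5 UMIs) were set against the other 27 (median 1331), leaving aside the 10 genes that define the split. The S phase list was at 8486 CPM in dividing cells and 6716 in the others, a log2 ratio of 0.34 (0.15 to 0.53). The interval included 0 where 3 rule genes were needed, where no neuronal gene was allowed and where 2 UMIs counted as seen. S phase genes were thus also frequent in cells with at most 1 core gene. Pcna was seen in 14 and Cdca7 in 8 of those 27. Ccnd3 was at 492 CPM in dividing cells and 175 in the others, a log2 ratio of 1.49 (0.39 to 2.84), or 1.40 (-0.22 to 3.71) without cells over 1% haemoglobin. Hmgb2 was at 3096 and 1128 CPM. Cd72 was seen in 21 of 92 and 1 of 27. Lower in dividing cells were Ebf1, with a log2 ratio of -0.83 (-1.42 to -0.21), or -1.44 (-2.21 to -0.60) without cells over 1% haemoglobin, Mzb1, with -0.68 (-1.21 to -0.12), and Vpreb1, with -0.50 (-0.92 to -0.07), although the interval of Vpreb1 included 0 without cells over 1% haemoglobin. The conventional light chain list had -2.13 (-2.91 to -1.35), but 12 of its UMIs were of Iglc2 in 2 cells that were not dividing, and Igkc alone had -1.18 (-2.11 to -0.19), or 0.17 (-1.89 to 3.33) without cells over 1% haemoglobin. Igll1 (-0.19 (-0.55 to 0.18)) and Vpreb3 (0.02 (-0.42 to 0.47)) had intervals that included 0. Both sets also differed in RNA of other cells. Chga had 1 UMI in dividing cells and 20 in 3 of the others, but 18 of these were in 1 cell. Hbb-bs, a haemoglobin gene, was at 17453 and 51947 CPM. Their part in these ratios was not tested.

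Dividing cells were found in each of the 3 sets split by Dntt and Igkc. Of cells with Dntt, 24 of 32 (75%, 56.6 to 88.5%) were dividing, of cells with neither 54 of 67 (80.6%, 69.1 to 89.2%), and of cells with Igkc 14 of 20 (70%, 45.7 to 88.1%). These intervals overlap widely, and whether the shares differ was not tested. Median G2/M UMIs per 1000 were 24.6 with Dntt, 13.2 with neither and 21.8 with Igkc. For S phase genes they were 5.64, 7.89 and 10.1, and the S phase list had a log2 ratio of -0.29 (-0.50 to -0.09) between cells with Dntt and with Igkc, the G2/M list 0.07 (-0.05 to 0.20) and the core proliferation genes 0.19 (-0.05 to 0.43). Against all cells without Dntt, cells with it had -0.08 (-0.25 to 0.08), 0.54 (0.44 to 0.64) and 0.70 (0.52 to 0.88) for the same lists. By depth, 42 of the 60 cells at or under the median depth were dividing (70%) and 50 of the 59 above it (84.7%), with overlapping intervals. The share with Dntt was 28.3% and 25.4% and that with Igkc 16.7% and 16.9% in the shallower and the deeper cells.

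Survival and homing genes were sparse. Bcl2 was seen in 1 cell, Bcl2l1 in 3 and Mcl1, which precursor B cells need to survive, in 25, with none of 2 genes compared past 4-fold. The integrin Itga4, by which precursors hold to stroma, was seen in 12 cells, Selplg in 12 and S1pr1, the receptor that guides cells into blood, in 10, while Itgal and Itgb7 were at 0, and 4 of 6 homing genes compared were at least 4-fold higher and 1 lower. The adhesion receptor Cd44 was at 26.4 CPM against 206 in neurons. Of the immediate early genes, which dissociation can induce, 2 of 7 compared were at least 4-fold lower than in other cells. These were Fos, at 132 CPM against 761, and Egr1, at 57.3 against 303. Of all genes compared, 23.8% were at least 4-fold lower, so this count does not set the list apart.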

How the data were processed

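Libraries of 9 Drop-seq runs were deposited by the authors as 1 table of UMI counts per gene and cell, not normalized, for cells with at least 1000 UMIs. The submitters' processing notes name bcl2fastq 2.17, STAR 2.5.3a, Seurat 1.4.0.16 and mm10. The study's limits of 200 and 8500 genes were applied; its mitochondrial limit was not. Doublets were not called. Some genes of the lists are not reported here and were left out of the list counts. Counts were summed over cells to CPM, with exact Poisson intervals, shares had exact binomial intervals, and log2 CPM ratios exact conditional intervals (Python 3.11.15, scipy 1.17.1), checked on simulated counts. Cells were also thinned to 1000 UMIs, and no cell was shallower. A gene was compared with other cells when it had 10 UMIs in the members or would have had at the other cells' CPM. Genes named are those of 28 lists, the 20 outside them with the highest ratio seen in 10 or more members, and the 10 highest and 10 lowest of the comparisons by division and by surrogate light chain; those named for Dntt against Igkc were chosen after their values were seen. The members and lists were chosen with earlier results of these data known. Alternatives changed the rule, depth, fold and minimum count. Sequences and positions are from RefSeq (GRCm38.p6).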

Additional observations from a re-analysis of the deposited data

How the results depend on the processing

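The number of cells was 40 with no neuronal gene allowed and 75 without cells over 1% haemoglobin, in place of 119. With no neuronal gene allowed, the share with Rag1, Rag2 or Dntt was 22.5%, and 359 genes were at least 4-fold higher and 531 lower, in place of 754 and 1351. Where 2 UMIs counted as seen, the share with Rag1, Rag2 or Dntt was 19.3%, with Igkc 9.24%, with a later B cell gene 1.68% and dividing 52.9%, and the log2 ratio of the S phase list between dividing and other cells was 0.0709. That ratio was 0.13 when 3 rule genes were needed, in place of 0.34, and 0.22 with no neuronal gene allowed, and the intervals of these 3 alternatives included 0. The dividing share was 86.6% with 1 core gene and 63.9% with 3. Past 2-fold, 1492 genes were higher and 2027 lower; past 8-fold 373 were higher. With a minimum of 20 UMIs 493 were higher and 800 lower, and with 5 UMIs 2067 were lower. The cause of the changes with the rule and in the S phase ratio was not tested; the other changes follow from stricter or looser counting. The other 51 values of these results stayed within the interval of the value reported or, for counts of genes, within 1.5 times.

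Alternatives for cells with Dntt against cells with Igkc and for single genes by division were added after seeing the data. The log2 ratio of Vpreb3, 0.20, was -0.18 where 2 UMIs of Dntt or Igkc were needed and -0.0576 after thinning. The ratio of Igkc between dividing and other cells, -1.18, was 0.17 without cells over 1% haemoglobin. After thinning, the ratios of Vpreb1, Ebf1 and Lef1 between cells with Dntt and with Igkc were 2.35, 3.11 and 2.96, in place of 1.65, 2.12 and 1.84. That of Ighm was -1.89 where 2 UMIs were needed, in place of -1.15, and that of Igll1 0.74 without cells over 1% haemoglobin, in place of 1.55. Intervals that excluded 0 came to include it for Blnk after thinning (1.15 (-0.14 to 2.63)), for Syk where 3 rule genes were needed, for Spib without cells over 1% haemoglobin or where 2 UMIs were needed, and for Ccnd3, Vpreb1 and Igkc by division without cells over 1% haemoglobin. At a median of 1442 UMIs a cell, a gene that was not seen may still have been expressed. No paired analysis was possible because the cells do not name their run and no comparison came from a test.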

Other observations

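The table held 31 rows for heavy chain variable segments (Ighv), which are among the segments joined when the heavy chain gene is assembled. Whether their UMIs came from joined genes was not tested. These rows were looked at after other values were seen. In the precursor B cells 27 of them had a UMI, with 51 UMIs in 25 cells, against 10 UMIs in all 6345 other cells. Ighv1-66 was the most frequent, with 13 UMIs in 11 cells, and no cell had more than 2 of its UMIs. Related segments can share reads, so the split among them is uncertain.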
